A study of Mus musculus with 7 samples.

Results

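The cells described here are the proliferating carcinoma cells of MMTV-PyMT mammary tumors, 183 of the 15047 cells in the 7 libraries analysed. They were chosen by measured values. A cell was a barcode with 200 to 6000 genes detected (mitochondrial genes left aside). It was called epithelial at 2 or more UMIs (unique molecular identifiers, each standing for 1 captured transcript) summed over Epcam, Krt8 and Krt18, transgene-positive at 1 or more UMIs of PYMT, and cycling at 2 or more UMIs summed over Mki67, Top2a, Birc5, Ube2c, Cdk1, Ccnb1 and Cenpf. Of 7048 epithelial cells, 3419 held a PYMT UMI, and 183 of those (5.35%) were cycling. In replicates 1, 2, 3, 4, 5, 7 and 8 the cycling cells numbered 59, 18, 21, 29, 21, 29 and 6. They were set, within each mouse, against 2476 contrast cells that met the same epithelial and PYMT conditions, lay in the same range of total UMIs and held 0 UMIs of the 7 cycle genes.

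Each library is the primary tumor of 1 mouse, processed by Drop-seq, a droplet method that tags the RNA of single cells with a barcode. All 7 mice carried MMTV-PyMT and both floxed HK2 alleles (HK2 f/f), are labelled wild type in genotype, and were sampled 3 months after a tumor could be felt. The labels' treatment text describes systemic, tamoxifen-induced deletion of HK2. Per the study's methods, the control mice that it names MMTV-PyMT;HK2 f/f were also given tamoxifen. HK2-deleted tumors were not analysed here. In this model the mouse mammary tumor virus promoter, active in mammary epithelium, drives the polyoma middle T oncogene. Titles place replicates 1 to 4 in a CB series and replicates 5, 7 and 8 in a WT series. The labels do not say what separates the series.

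A dividing cell first licenses its replication origins by loading the MCM helicase, copies its DNA with polymerases and a supply of deoxynucleotides, then condenses its chromosomes, builds a spindle, and exits mitosis when the anaphase-promoting complex destroys cyclin B and securin. Transcripts of the early steps are driven mainly by E2F factors. Those of the late steps are held down in resting cells by the DREAM complex and raised in G2 by B-MYB and FOXM1, which act with the same MuvB core on a short promoter element, the cell cycle genes homology region (CHR), often beside CCAAT boxes bound by NF-Y. In the mammary gland, proliferation and secretory differentiation are classically opposed: lactating alveolar cells stop dividing before they secrete milk.

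The following promoters are shown because these 5 genes span the part of the cycle that defined the cells, from S phase and chromosome structure (Top2a, Hmgb2) to mitotic entry (Cdk1, Ccnb2) and anaphase (Cdc20). Top2a and Cdk1 are 2 of the genes that chose the cells, and Hmgb2, Ccnb2 and Cdc20 are among the genes with the smallest p in their lists. Each is the 250 bases before the RefSeq start in build GRCm38.p6, read 5′ to 3′ on the gene's strand, with CHR letters (TTTGAA or TTCGAA, either strand) and CCAAT (either strand) in capitals.
Top2a (chr11:99024190-99024439, minus strand): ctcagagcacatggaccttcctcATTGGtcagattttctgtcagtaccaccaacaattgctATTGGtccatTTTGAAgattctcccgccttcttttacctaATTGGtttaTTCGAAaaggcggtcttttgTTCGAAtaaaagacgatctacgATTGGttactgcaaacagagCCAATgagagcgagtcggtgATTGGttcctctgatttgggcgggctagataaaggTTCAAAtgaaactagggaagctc
Cdk1 (chr10:69352913-69353162, minus strand): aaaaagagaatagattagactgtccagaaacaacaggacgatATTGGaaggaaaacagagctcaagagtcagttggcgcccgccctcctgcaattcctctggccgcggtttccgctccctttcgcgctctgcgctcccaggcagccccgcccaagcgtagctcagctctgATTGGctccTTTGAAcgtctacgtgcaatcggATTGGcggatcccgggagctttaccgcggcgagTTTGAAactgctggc
Hmgb2 (chr8:57511593-57511842, plus strand): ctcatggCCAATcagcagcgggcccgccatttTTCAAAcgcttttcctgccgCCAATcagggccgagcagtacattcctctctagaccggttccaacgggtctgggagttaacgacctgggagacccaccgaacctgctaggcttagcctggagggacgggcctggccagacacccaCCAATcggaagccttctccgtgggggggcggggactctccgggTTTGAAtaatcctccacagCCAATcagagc
Ccnb2 (chr9:70421555-70421804, minus strand): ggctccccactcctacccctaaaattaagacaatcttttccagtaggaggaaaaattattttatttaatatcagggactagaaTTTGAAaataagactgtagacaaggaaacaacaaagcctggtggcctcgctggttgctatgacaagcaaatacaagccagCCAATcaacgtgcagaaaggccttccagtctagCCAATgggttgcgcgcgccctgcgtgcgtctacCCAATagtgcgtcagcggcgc
Cdc20 (chr4:118437344-118437593, minus strand): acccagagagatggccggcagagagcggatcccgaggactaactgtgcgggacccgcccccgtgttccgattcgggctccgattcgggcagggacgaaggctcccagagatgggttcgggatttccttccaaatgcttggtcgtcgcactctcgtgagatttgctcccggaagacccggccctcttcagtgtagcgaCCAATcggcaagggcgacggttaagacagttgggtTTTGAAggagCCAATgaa
The window of Top2a held 4 CHR matches and 6 of CCAAT, that of Cdk1 held 2 and 3, that of Hmgb2 held 2 and 4, that of Ccnb2 held 1 and 3, and that of Cdc20 held 1 and 2. In full 300-base windows (250 bases before and 50 after the start), CHR letters stood in 21.7% of the 27025 genes with a window. They stood in 5 of the 7 genes that chose the cells and in 70.2% of the 57 spindle, kinetochore and mitotic exit genes with a window, of 69 in that list. All 5 genes shown hold both CHR and CCAAT, which not every cycle gene does. Birc5 and Nusap1 had neither, and Ccnb1 had CCAAT without CHR. CCAAT stood in 41.1% of all genes and in 70.2% of the spindle genes. CHR and CCAAT together stood in 8.61% of all genes and 56.1% of the spindle genes. The chromatin genes had CHR in 42.4% and both in 30.3%, and the DNA synthesis genes in 9.38% and 3.12%. E2F letters (TTTCGCGC, TTTGGCGC, TTTGCCGC or TTTCCCGC, either strand) stood in 2.60% of all genes, in 5.26% of the spindle genes, in 25.0% of the 32 DNA synthesis genes and in 33.3% of the 33 chromatin genes with a window. Only 15 of the 20 licensing genes had a window, under 80%, so no share is given for them. A match is a description of letters and does not show that a factor binds there.

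The 7 libraries held 15913827 UMIs in cells, from 962677 to 4471473 per mouse. The cycling cells were deeper than the cells they were set against. Their median total per mouse ran from 2644 to 5129 UMIs, that of the contrast cells from 1043 to 2190, and the median number of genes from 1504 to 2237 against 664 to 1176. Since a deep cell is more likely to yield 2 UMIs of 7 genes, and dividing cells hold more RNA, the choice itself favours deep cells, and the part of depth in the choice cannot be told apart from that of RNA content. A depth-matched set of 167 contrast cells, drawn within each mouse over the same bins of total UMIs, had medians from 2831 to 4660 UMIs and is given beside the results. The match was incomplete, with fewer matched cells than the 183 cycling cells. Matched medians in replicates 1, 2, 3, 4 and 8 (3119, 3756, 4223.5, 3091 and 2831) lay under the cycling medians (3440, 4675, 5129, 3410 and 3026.5). In replicates 5 and 7 they lay above (2863 and 4660 against 2644 and 4624). No cycling cell shared its barcode with a cell of another library, where 5 barcodes in all were shared, and none shared its first 11 barcode bases with another cell of its library, where 16 cells did.

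The 7 genes that chose the cells are given as a description, with no test. Mki67, the Ki-67 antigen that coats mitotic chromosomes, was found in 121 of the 183 cells. It held 94, 45, 35, 46, 42, 50 and 6 UMIs in replicates 1, 2, 3, 4, 5, 7 and 8. Top2a, the topoisomerase that untangles sister DNA, was found in 110 cells with 112, 72, 42, 33, 36, 47 and 20 UMIs. Birc5, the survivin subunit of the chromosomal passenger complex, was found in 112 cells, and Ube2c, the ubiquitin-conjugating enzyme of the anaphase-promoting complex, in 99. Cdk1, the mitotic kinase, was found in 77 cells, its partner Ccnb1 in 57, and the kinetochore protein Cenpf in 66. Summed over the cycling cells of each mouse, the mean level was 433 ± 159 counts per 1000000 UMIs of the class (CPM) for Top2a (SD, n = 7), 347 ± 112 for Mki67, 343 ± 155 for Ube2c, 275 ± 79.2 for Birc5, 209 ± 92.1 for Cdk1, 177 ± 45.3 for Cenpf and 91.6 ± 41.5 for Ccnb1. Neighbours in this order differed by less than the SD between mice, except that Cenpf and Ccnb1 differed by more.

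The cells were not uniform in these genes. The median cell held 5 UMIs of the 7 genes and the highest held 51. All 7 genes were seen in 14 cells, 4 or more in 83, and 23 cells were chosen on 1 gene alone. Mki67 and Top2a were seen together in 81 cells, which is 66.9% of the cells with Mki67 and 73.6% of those with Top2a. Of the 57 cells with Ccnb1, 82.5% also held Mki67. At the edge of the rule, 50 cells held exactly 2 UMIs, and 155 PYMT-positive epithelial cells just outside held exactly 1.

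Levels of genes that the rule did not use changed by steps across that edge, and so did depth, with a median of 2368.5 UMIs in cells with exactly 2 cycle UMIs and 5577.5 in cells with 5 or more. The mix of mice differed too: replicate 7 gave 1497067 of the 5044341 UMIs of the contrast cells and 151384 of the 911815 of the cycling cells. The parts of depth and of this mix in these steps were not tested. The summed level of the 69 spindle, kinetochore and mitotic exit genes, over all mice, was 634 CPM in the contrast cells, 600 in the depth-matched contrast cells, 1221 in cells with 1 cycle UMI, 2226 in cells with 2, 3850 in cells with 3 or 4, and 6022 in cells with 5 or more. Replication licensing genes went from 247 in the contrast cells to 480 in cells with 1 cycle UMI, 608 in cells with 2 and 982 in cells with 5 or more. In the other direction, acute-phase and secreted defense genes went from 46335 in the contrast cells to 27826 in cells with 1 cycle UMI, 26462 in cells with 2 and 18148 in cells with 5 or more. The cells with exactly 1 UMI, which the rule leaves out, thus lay between the contrast cells and the cycling cells in each of these lists. No test was run on this order.

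**Figure D1:**
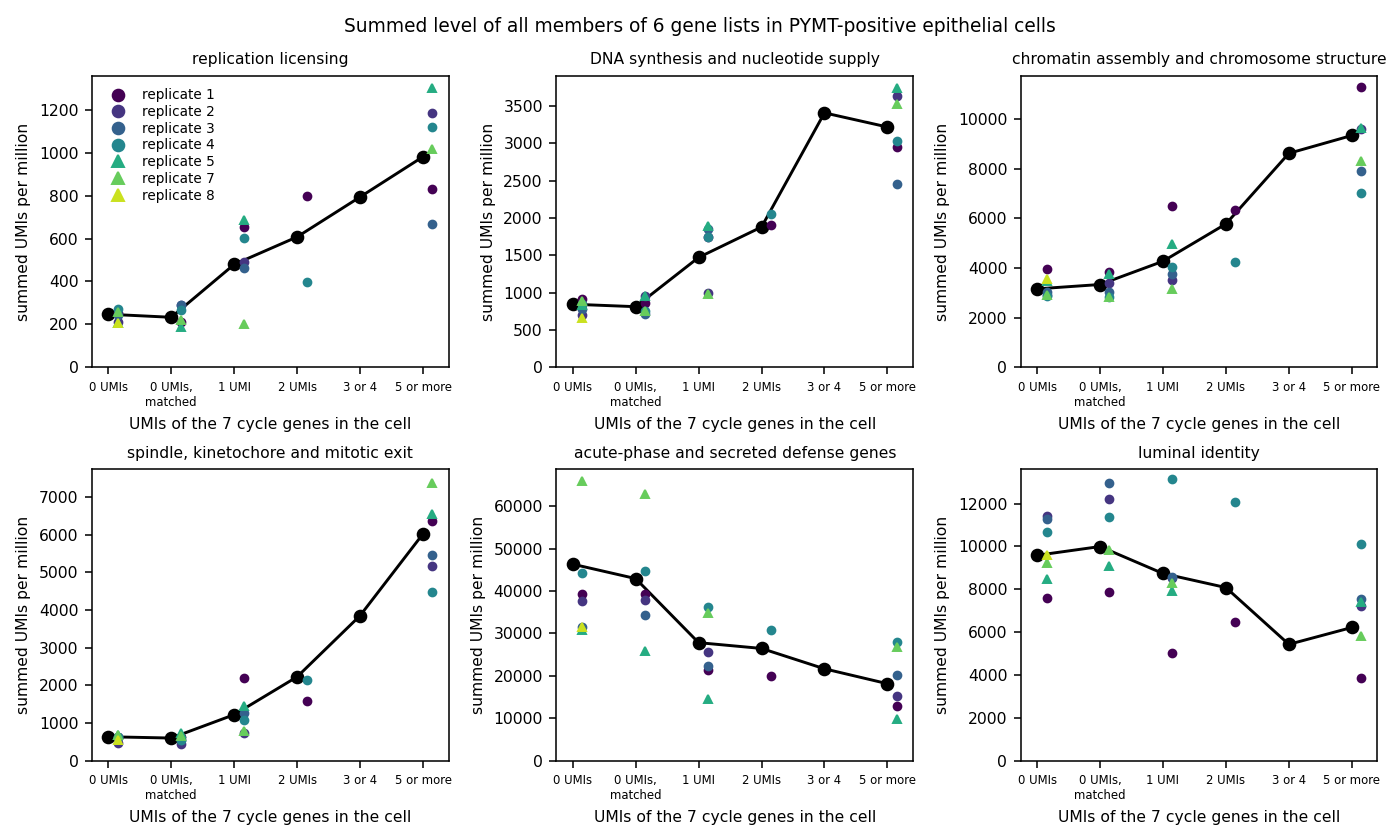
Summed CPM of all members of 6 gene lists (y axis, linear from 0) in PYMT-positive epithelial cells grouped by UMIs of the 7 cycle genes (x axis; "matched" is the depth-matched contrast set). Black points and lines are all mice pooled, coloured points are mice with 10 or more cells in the class (circles for the CB series, triangles for the WT series), and the spindle list climbs from 634 to 6022 while the acute-phase list falls from 46335 to 18148 from the 0-UMI cells to the cells with 5 or more.

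To ask what else distinguishes the cycling cells, UMIs were summed per mouse and class and tested with edgeR (quasi-likelihood F-test, each mouse its own block), and p-values were adjusted by Benjamini-Hochberg over the 5122 genes that passed a filter on low counts. Replicate 8, with 6 cycling cells, is not in the fit, so n = 6 mice. The 11 genes of the rule were left out of the test. At an adjusted p under 0.05, 606 genes were higher in the cycling cells (11.8% of those tested) and 559 lower (10.9%). Against the depth-matched cells, over the same genes, 328 were higher (6.4%) and 334 lower (6.52%), and 623 of the 1165 calls were kept in the same direction. Without replicate 1, which held 59 of the 177 cycling cells in the fit, 753 genes were called against all contrast cells. With the filter run anew on the depth-matched sums, 485 of 2091 genes were called in all mice and 292 of 1935 without replicate 1. Of the 1165 fold changes, 1164 had the same sign in both comparisons. The matched cells were drawn from the contrast cells and the cycling sums were the same, so this agreement is no separate support. Of the 1165 called genes, 238 had every mouse's cycling level above every contrast level, 66 had every one below and 861 overlapped. Over all 5122 genes tested these numbers were 245, 71 and 4806. The calls rest on the same sums, so this is a description. The cells were chosen by genes of the cell cycle, so a higher level of other cell cycle genes follows closely on the choice, and the counts of those lists are no independent evidence that the cells divide. Many of these genes also passed the filter through the cycling sums alone (259 of all genes tested, 27 of the 30 spindle genes), where a difference is built in. For the cell cycle lists the summed level over every member, tested or not, is therefore given beside the counts.

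Replication licensing genes, which load and fire the MCM helicase, had a summed level of 939 ± 182 CPM in the cycling cells and 235 ± 27.0 in the contrast cells (SD, n = 7 mice). The groups did not overlap, with 622 to 1137 against 206 to 271, and the depth-matched cells lay at 231 ± 53.9. All 20 members were more abundant in the pooled cycling cells, 9 passed the filter, and 8 of those were called higher, none of them a gene that passed in both classes. Mcm2, a subunit of the helicase, stood at 42.9, 101, 45.0, 62.1, 64.6 and 119 CPM in the cycling cells of replicates 1, 2, 3, 4, 5 and 7 and at 3.63, 2.39, 16.9, 11.3, 10.8 and 8.68 in their contrast cells. The lowest cycling value exceeded the highest contrast value, and the fitted log2 fold change was 2.97 ± 0.36 (SE). For Gmnn, geminin, the inhibitor that keeps an origin from being licensed again in the same cycle, the cycling values ran from 30.0 to 119 and the contrast values from 4.22 to 11.4 (log2 fold change 3.33 ± 0.30).

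DNA synthesis and nucleotide supply genes summed to 3189 ± 509 CPM against 803 ± 93.3, again without overlap (2480 to 3887 against 661 to 915). Of 40 members, 39 were more abundant in the pooled cycling cells, 24 passed the filter and 23 were called higher, 4 of the 5 that passed in both classes among them. Rrm2, the regulated subunit of ribonucleotide reductase, stood at 143, 137, 142, 109, 129 and 159 in the cycling cells and at 13.3, 2.39, 8.43, 3.48, 3.62 and 2.67 in the contrast cells. Its level in cycling cells was among the most even across mice, and its log2 fold change was 4.50 ± 0.31. Tyms, thymidylate synthase, stood at 143, 147, 150, 147, 194 and 211 against 29.0, 7.16, 16.9, 21.8, 21.7 and 19.4 (log2 fold change 2.95 ± 0.24). Tk1, thymidine kinase, and Lig1, the ligase that joins Okazaki fragments, had log2 fold changes of 3.55 ± 0.27 and 2.56 ± 0.20. Pclaf, the PCNA-associated factor, belongs to no list and passed the filter through the cycling sums alone, as did Mcm2, Rrm2, Tyms, Tk1 and Lig1. Pclaf stood at 340, 504, 180, 241, 452 and 337 in the cycling cells and at 12.1, 2.39, 8.43, 2.61, 9.04 and 6.01 in the contrast cells, which is a log2 fold change of 5.50 ± 0.24 and 5.94 against the depth-matched cells, given as a description with no test.

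Chromatin assembly and chromosome structure genes summed to 8608 ± 1433 against 3243 ± 420, with 6443 to 10210 against 2882 to 3953. All 40 members were more abundant in the pooled cycling cells, and all 28 that passed the filter were called higher, 18 of them genes that passed in both classes. The other 10, Uhrf1 and Smc2 among them, passed through the cycling sums alone. Hmgb2, a DNA-bending protein whose promoter is shown above, stood at 965, 999, 322, 380, 749 and 561 in the cycling cells and at 79.8, 71.6, 61.1, 42.7, 63.3 and 44.8 in the contrast cells (log2 fold change 3.33 ± 0.16). Smc4, the ATPase of condensin, stood at 736, 495, 637, 326, 672 and 462 against 190, 90.7, 196, 107, 146 and 66.1 (2.03 ± 0.15). The histone variant gene H2afz had a log2 fold change of 1.98 ± 0.17, with 180 to 601 against 62.7 to 110. Uhrf1, which keeps DNA methylation through replication, reached 70.2 ± 29.4 against a mean of 4.28 (3.83 ± 0.34).

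Spindle, kinetochore and mitotic exit genes summed to 5173 ± 1127 CPM in the cycling cells and 611 ± 74.1 in the contrast cells, with 3819 to 7108 against 480 to 692. All 67 members with a UMI were more abundant in the pooled cycling cells. Of the 30 that passed the filter 28 were called higher, and 1 of them passed in both classes. Nuf2, Kifc1 and Depdc1a had 0 UMIs in the contrast cells. Nusap1, which bundles microtubules around chromosomes, stood at 100, 211, 105, 69.9, 142 and 165 in the cycling cells and never above 2.11 in the contrast cells (log2 fold change 6.55 ± 0.37). The contrast sums held 5 UMIs of Nusap1 in all, so the size of this fold rests on few counts. Hmmr, a spindle-pole protein, stood at 186, 147, 127, 155, 220 and 238 against 3.63, 2.39, 2.11, 1.74, 3.62 and 0 (6.37 ± 0.35). Cdc20, the activator of the anaphase-promoting complex, stood at 232, 110, 135, 155, 129 and 251 against 8.47, 4.77, 6.33, 4.35, 5.42 and 2.67 (5.04 ± 0.29). Cdca8, the borealin subunit of the passenger complex, and Prc1, which crosslinks the central spindle, had log2 fold changes of 4.80 ± 0.28 and 5.21 ± 0.30.

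Cyclins, CDKs and their activators summed to 1941 ± 143 against 737 ± 89.9. Ccnb2, the second B-type cyclin, stood at 222, 137, 172, 248, 155 and 264 in the cycling cells and at 3.63, 0, 4.22, 3.48, 10.8 and 1.34 in the contrast cells (log2 fold change 5.77 ± 0.33). Ccna2, the cyclin of S phase and early mitosis, had 82 UMIs in the cycling sums and 6 in the far larger contrast sums. Ccnb2 and Ccna2 passed the filter through the cycling sums alone, where a difference is built in. The G1 kinase gene Cdk4, which passed the filter in both classes, differed least among the 5 named members, with 202 to 558 against 130 to 290 (0.74 ± 0.14). Its groups overlapped, although the level was higher in 6 of 6 mice. The 19 transcription factors of the cycle summed to 406 ± 36.5 (349 to 452) in the cycling cells and 273 ± 57.8 (223 to 377) in the contrast cells, higher in 7 of 7 mice (5 of 7 against the depth-matched cells), and 14 of them were more abundant in the pooled cycling cells. Of the 19, Foxm1 had 0 UMIs in the contrast sums, 2 genes passed the filter, and Myc was called lower, with 92.1 ± 39.3 against a mean of 134 (-0.55 ± 0.18, edgeR adjusted p = 0.032). The call of Myc was not kept against the depth-matched cells (-0.57, adjusted p = 0.155), nor without any of replicates 1, 2, 3 and 5 (-0.65 to -0.46). The 15 tubulin and stathmin genes summed to 3452 ± 493 against 2317 ± 369, higher in 7 of 7 mice, and 12 passed the filter, 4 were higher and 1 lower, beside 11.8% and 10.9% of all genes. Tubb5, the main beta-tubulin of dividing cells, stood at 958, 926, 457, 699, 723 and 740 against 189, 172, 245, 215, 166 and 200 (1.83 ± 0.16), whereas Tubb2a was called lower (-0.56 ± 0.16, adjusted p = 0.0116), a call lost without replicate 1 (-0.50) and against the depth-matched cells (-0.57, adjusted p = 0.0854).

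**Figure D2:**
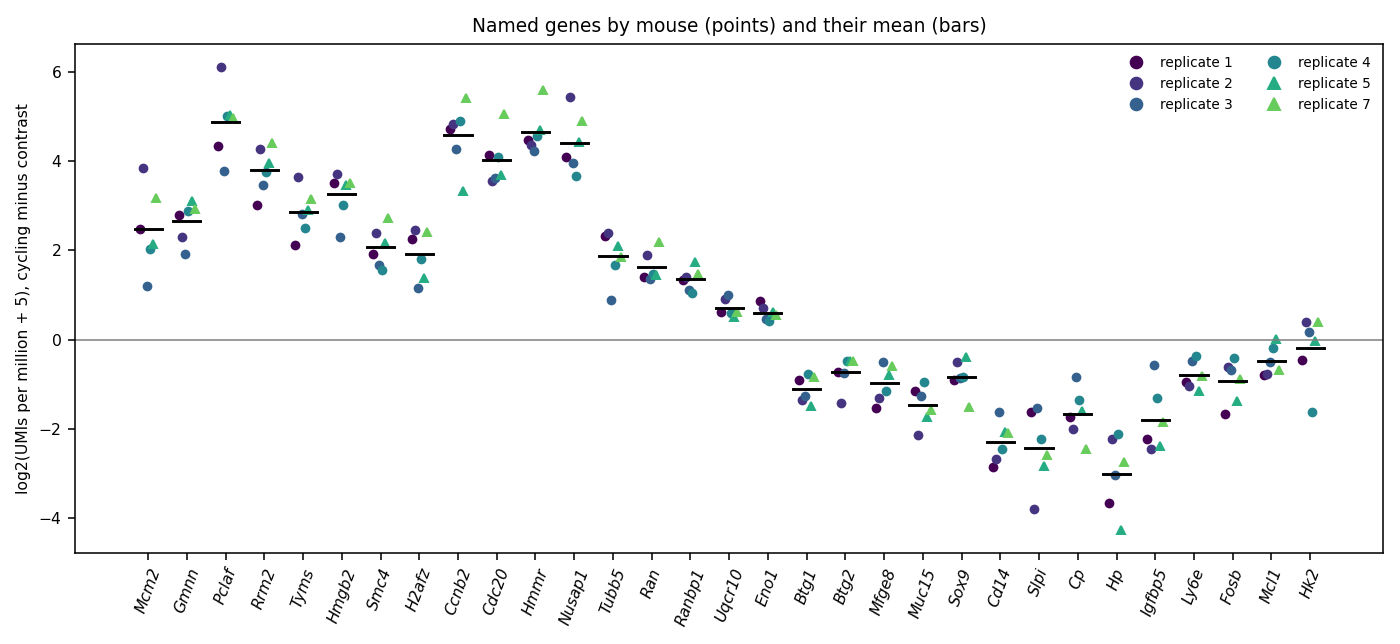
Difference between cycling and contrast cells in log2(CPM + 5) (y axis) for 31 named genes (x axis), 1 point per mouse (circles for the CB series, triangles for the WT series) and the mean of the 6 mice as a bar. The pseudocount of 5 shrinks the large differences relative to the fitted fold changes. All 6 points lie above 0 from Mcm2 to Eno1 and below 0 from Btg1 to Fosb, and those of Hk2 lie on both sides.

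Several genes that restrain the cycle were lower. The 20 CDK inhibitors, pocket proteins and arrest genes summed to 2373 ± 381 in the cycling cells and 3304 ± 260 in the contrast cells, lower in 7 of 7 mice. Of these, 13 passed the filter, 6 were called lower and 0 higher, where 10.9% of all genes were lower. Btg1, Btg2 and Gadd45g were lower among the 6 genes that passed in both classes. Gadd45a, Gadd45b and Rb1 passed through the contrast sums alone, where a difference is built in, and Gadd45b lost its call against the depth-matched cells (-0.73, adjusted p = 0.122). Of the list, the CDK inhibitor genes tested (Cdkn1a, Cdkn1b, Cdkn2a and Cdkn2c) were not called. Btg1, an antiproliferative co-regulator, stood at 415, 174, 105, 155, 129 and 119 in the cycling cells and at 780, 453, 259, 267, 372 and 215 in the contrast cells (log2 fold change -1.15 ± 0.15, edgeR adjusted p = 2.03e-06). It was lower in every mouse, though replicate 1 was high in both classes and the groups overlapped. Btg2, which is counted again among the immediate early genes below, behaved alike (-0.77 ± 0.13). Rb1, the retinoblastoma pocket protein that holds E2F in check, had 16 UMIs in the cycling sums and 297 in the contrast sums, with 0 to 33.0 against 33.7 to 86.2 (-1.71 ± 0.35). Rb1 passed the filter through the contrast sums alone. Against the depth-matched cells 5 of the 13 were lower, where 6.52% of all genes were. The median log2 fold change of the 13 was -0.32 against all contrast cells and -0.05 against the depth-matched cells.

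Most growth genes were higher in the cycling cells. Of the 38 nucleolus and MYC-linked growth genes, 36 passed the filter, 34 of them in both classes, and 28 were called higher (26 of the 34) with 0 lower, beside 15% higher among all 2585 genes that passed in both classes. Their median log2 fold change was 0.65 (-0.01 over all genes), and against the depth-matched cells 17 were higher, beside 6.4% of all genes. Ran, the GTPase of nuclear transport and spindle assembly, stood at 654, 632, 345, 202, 349 and 509 in the cycling cells and at 246, 167, 131, 69.6, 125 and 108 in the contrast cells (1.61 ± 0.14). Ranbp1, its partner, stood at 686, 715, 794, 582, 904 and 753 against 270, 267, 367, 279, 269 and 267 (1.28 ± 0.12), so that the lowest cycling value lay well above the highest contrast value. Hspd1, the mitochondrial chaperonin, had a log2 fold change of 1.23 ± 0.14. Of 36 RNA processing genes, all of which passed, 25 were higher and 0 lower, beside 11.8% and 10.9% of all genes. The smallest p stood with the nuclear phosphoproteins Anp32b (1.07 ± 0.13) and Anp32e (1.34 ± 0.17) and the spliceosomal Snrpd1 (1.11 ± 0.14).

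Few cytosolic ribosomal protein genes were called. Of 80 cytosolic ribosomal protein genes tested, 3 were higher (Rpl13a, Rps27l and Rpsa) and 1 lower (Rps27), a smaller share than among all genes. Their median log2 fold change was 0.11, and 0.23 against the depth-matched cells. Of the 80 fold changes 66 were above 0, beside 2531 of 5122 over all genes. The summed level of the list was higher in the cycling cells in 6 of 7 mice (7 of 7 against the depth-matched cells). Rps27l lost its call without replicate 1 (0.33) or 7 (0.31), and Rpsa without replicate 1 (0.33), 2 (0.36), 5 (0.33) or 7 (0.28). Without TMM scaling, which moved the median of all genes from -0.01 to 0.06, 14 were higher and 0 lower. Ribosomal genes have many near-identical pseudogene copies, and how the counting split such reads is not known here. Of 74 nuclear-encoded respiratory chain genes tested, 70 passed the filter in both classes, 29 were higher and 1 lower, with a median of 0.30, and 11 were higher against the depth-matched cells. Uqcr10, a subunit of complex III, stood at 597, 632, 502, 675, 581 and 561 against 387, 336, 249, 443, 405 and 365 (0.64 ± 0.12, adjusted p = 0.000336), without overlap. Cycs, cytochrome c, had a log2 fold change of 0.78 ± 0.15. Of 15 glycolysis genes tested, 3 were higher (Eno1, Tpi1 and Gapdh) and 2 lower (Aldoc and Slc2a1), of which Aldoc lost the call without replicate 5 (-0.49) or replicate 7 (-0.52) and against the depth-matched cells (-0.36, adjusted p = 0.331). Against those cells 2 of the 15 were higher (Eno1 and Tpi1, not Gapdh) and 1 lower, beside 6.4% and 6.52% of all genes. Eno1, enolase, stood at 379, 321, 412, 303, 439 and 410 against 207, 196, 297, 225, 284 and 277 (0.54 ± 0.13, adjusted p = 0.00282). Slc2a1, the glucose transporter GLUT1, was lower (-0.85 ± 0.24). It passed the filter through the contrast sums alone, where a difference is built in. Of 30 secretory pathway and unfolded protein response genes 6 were higher and 2 lower, beside 11.8% higher and 10.9% lower over all genes. Of the 27 that passed in both classes 4 were higher and 2 lower, beside 15% and 11.5% of all such genes. The higher genes included Hsp90b1, the chaperone of the endoplasmic reticulum (0.67 ± 0.12), and the lower ones Atf4, a stress transcription factor (-0.47 ± 0.13). Against the depth-matched cells 2 of the 30 were higher and 1 lower, beside 6.4% and 6.52% of all genes. Atf4 was not called there (-0.25, adjusted p = 0.337).

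**Figure D3:**
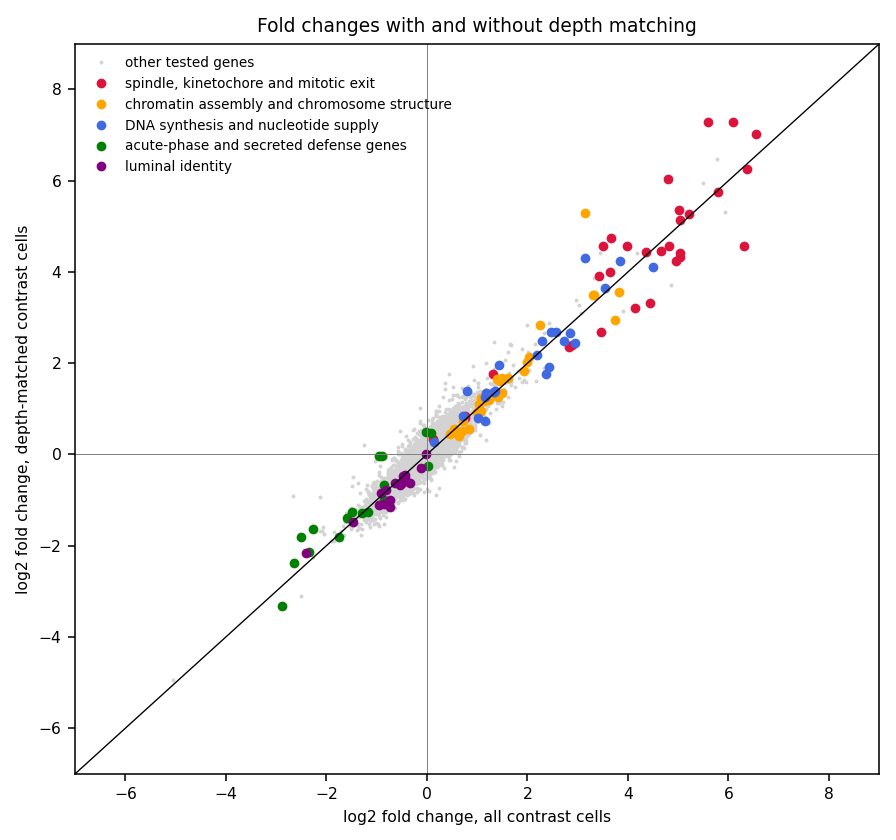
Log2 fold change of each tested gene against all contrast cells (x axis) and against the depth-matched contrast cells (y axis), with 5 gene lists in colour and the line of equality in black. Spindle genes lie at the upper right and acute-phase and luminal identity genes mostly at the lower left on both axes. Of the 1165 called genes, 1164 have the same sign on both. Both axes share the cycling sums, and the matched cells were drawn from the contrast cells, so this agreement is no separate support.

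Most of the tested acute-phase and luminal identity genes were lower. Acute-phase and secreted defense genes, which mammary luminal cells pour into milk or release under inflammation, summed to 19159 ± 6943 CPM in the cycling cells and 40156 ± 12384 in the contrast cells, and to 39832 ± 11749 in the depth-matched cells. The sum was lower in 7 of 7 mice. Of 23 members, 17 passed the filter, 13 were called lower and 0 higher, with 6 lower among the 8 that passed in both classes, where 11.5% of all such genes were lower. Against the depth-matched cells 10 were lower, beside 6.52% of all genes. Cp, ceruloplasmin, the copper-carrying ferroxidase, stood at 604, 504, 764, 900, 775 and 978 in the cycling cells and at 2017, 2038, 1377, 2323, 2374 and 5322 in the contrast cells (log2 fold change -1.75 ± 0.15, adjusted p = 3.76e-09). Every cycling value lay under every contrast value, and replicate 7 was far above the other mice in the contrast cells. Slpi, a secreted protease inhibitor, stood at 132, 36.7, 127, 69.9, 25.8 and 165 against 416, 568, 375, 343, 215 and 1010 (-2.34 ± 0.20). Hp, haptoglobin, had 23 UMIs in the cycling sums and 1024 in the contrast sums (-2.88 ± 0.27). Slpi and Hp passed the filter through the contrast sums alone, and Cp passed in both classes.

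Luminal identity genes followed the same direction. Of 19 members, 17 passed the filter, 11 were lower and 0 higher, where 10.9% of all genes were lower. Of the 13 that passed in both classes 8 were lower, where 11.5% of all such genes were. All 17 fold changes were below 0. Against the depth-matched cells the same number, 11, were lower, where 6.52% of all genes were. Krt7, Krt19, Gata3, Cdh1, Aldh1a3 and Itga6 were tested and not called against all contrast cells. Cd14, the lipopolysaccharide co-receptor that marks luminal progenitors, stood at 75.1, 73.3, 150, 171, 129 and 271 in the cycling cells and at 572, 496, 474, 956, 557 and 1177 in the contrast cells (-2.40 ± 0.16, adjusted p = 1.87e-11). It had the smallest p of the genes that fell. Sox9, a progenitor transcription factor, stood at 211, 440, 255, 326, 362 and 145 against 398, 628, 466, 586, 477 and 423 (-0.91 ± 0.14), and Sox4 had a log2 fold change of -0.81 ± 0.12. The tight junction genes Cldn3, Cldn4 and Cldn7 were also among the 11, named here after their values were seen. Epcam, Krt8, Krt18 and PYMT chose the cells of both classes, and a minimum UMI number raises their CPM in shallow cells, so that nothing is read from their levels (a sum of 6832 ± 2136 in the cycling cells and 11108 ± 2512 in the contrast cells). The sum was higher in the cycling cells in 0 of 7 mice, and also in 0 of 7 against the depth-matched cells. The part of depth in this was not tested.

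The milk genes did not move as a block. Of 22 alveolar and milk genes, 16 passed the filter, 8 were lower and 3 higher, beside 10.9% and 11.8% of all genes. Of the 11 that passed in both classes, 6 were lower and 2 higher. Among the lower ones, Mfge8, the milk fat globule protein, stood at 232, 431, 532, 543, 349 and 542 against 679, 1067, 755, 1214, 611 and 817, without overlap (-1.06 ± 0.14). Muc15, a membrane mucin, was lower in 6 of 6 mice (-1.52 ± 0.17). Ltf, lactoferrin, varied most, with 42.9, 202, 352, 2166, 0 and 931 in the cycling cells (-2.51 ± 0.36), and passed the filter through the contrast sums alone. The casein gene Csn3 was lower as well (-0.76 ± 0.13). The 3 higher genes, named after their values were seen, were Wap, whey acidic protein (1.30 ± 0.43, adjusted p = 0.0315, higher in 4 of 6 mice), the casein gene Csn1s1 (0.97 ± 0.31, adjusted p = 0.0250, 4 of 6 mice) and Thrsp, a regulator of lipogenesis (0.47 ± 0.16, adjusted p = 0.0348). Against the depth-matched cells, Wap alone of the 3 was called (1.39, adjusted p = 0.0364). Of 6 hormone-sensing luminal genes tested, 1 was higher and 0 lower, beside 11.8% and 10.9% of all genes. The higher gene was Cited1, an estrogen receptor co-activator (1.65 ± 0.25). It stood at 0, 376, 105, 559, 245 and 449 against 0, 110, 46.4, 253, 132 and 46.1, and passed the filter through a mix of sums of both classes. Replicate 1 had no UMI of Cited1 in either class. Against the depth-matched cells 2 of the 6 genes were higher and 1 lower, beside 6.4% and 6.52% of all genes.

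Part of the MHC class I and interferon genes and most of the immediate early genes were lower, where 10.9% of all genes were lower (6.52% against the depth-matched cells). Of 24 MHC class I and interferon genes, all of which passed the filter, 9 were lower and 0 higher (7 lower of the 13 that passed in both classes), and 3 were lower against the depth-matched cells. Those 3 were Ly6e, H2-T23 and Irf7, of which Irf7 passed the filter through the contrast sums alone. The 9 included B2m, H2-D1 and H2-K1, the parts of the class I molecule, none of which was called against the depth-matched cells. Ly6e, an interferon-induced surface protein, stood at 1609, 2227, 2105, 3850, 1873 and 3785 against 3098, 4555, 2912, 4930, 4145 and 6660 (-0.86 ± 0.12). Of 21 immediate early and heat shock genes tested, 15 were lower and 2 higher (Hsph1 and Hsp90aa1), and 9 were lower against the depth-matched cells. Fosb stood at 526, 1888, 599, 1405, 555 and 1935 against 1665, 2909, 961, 1860, 1444 and 3544 (-1.0 ± 0.14), lower in each mouse with overlapping groups. Atf3 and Jund fell by a like amount (-0.93 ± 0.12 and -0.91 ± 0.12). Immediate early genes also respond to tissue dissociation, and how far dissociation entered these levels was not tested.

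Among genes in no list, the 10 with the smallest p in each direction were chosen for their p, so their values are a description. Besides Pclaf, the higher ones included Esco2, which establishes sister chromatid cohesion (log2 fold change 4.86 ± 0.47), the formin gene Diaph3 (4.19 ± 0.37), the histone chaperone genes Hirip3 (2.34 ± 0.25) and Dnajc9 (2.42 ± 0.27), and Rbp7, a retinoid-binding protein (2.34 ± 0.20), all of which passed the filter through the cycling sums alone. Rbp7 stood at 529, 55.0, 157, 155, 155 and 502 in the cycling cells and at 91.9, 28.6, 48.5, 35.7, 18.1 and 64.8 in the contrast cells, with replicates 1 and 7 highest. The lower ones included Wfdc12, a whey-type protease inhibitor with 4 UMIs in the cycling sums and 929 in the contrast sums (-5.05 ± 0.44), which passed the filter through the contrast sums alone. Igfbp5, a binding protein of insulin-like growth factors that rises at involution, stood at 969, 962, 2457, 1972, 633 and 1480 against 4574, 5302, 3633, 4865, 3310 and 5344 (-1.85 ± 0.18, adjusted p = 1.92e-08). All cycling values of Igfbp5 lay under all contrast values. The lysosomal genes Ctsl (-1.41 ± 0.15) and Lipa (-1.62 ± 0.18), the NF-kappaB inhibitor Nfkbia (-1.48 ± 0.16), the transcription factor Cebpd (-1.51 ± 0.17) and the nuclear RNA Malat1 (-1.04 ± 0.11) were lower too.

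Of the 15 genes at the centre of the study (hexokinase 2, the GSK3 kinases, protein kinase A subunits, GSK3 targets, and epithelial and mesenchymal targets of SNAIL), 11 passed the filter and 1 was called lower, a share near the 10.9% of all genes that were lower. Mcl1, the anti-apoptotic BCL2 relative, was lower (-0.59 ± 0.14, edgeR adjusted p = 0.00375), with 350, 192, 262, 248, 323 and 126 against 613, 334, 373, 281, 320 and 205. Its values were lower in 5 of 6 mice. Hk2 itself was sparse, with 28 UMIs in the cycling sums and 164 in the contrast sums. Its levels of 35.8, 64.2, 15, 7.76, 51.7 and 26.4 against 50.8, 47.7, 12.7, 34.0, 52.4 and 18.7 did not separate the classes (-0.26 ± 0.32, adjusted p = 0.626), and differences of the size of the SE could not be detected at this depth. Gsk3b, with 170 UMIs in the cycling sums, had a log2 fold change of 0.04 ± 0.16 (adjusted p = 0.904) and Gsk3a, with 28, of 0.06 ± 0.33 (adjusted p = 0.923). Prkar1a, the regulatory subunit of protein kinase A, had -0.19 ± 0.16 (adjusted p = 0.425), and Nfe2l2, which encodes NRF2, -0.26 ± 0.22 (adjusted p = 0.423). The junction genes Cdh1 (-0.34 ± 0.15, adjusted p = 0.113) and Cldn1 (-0.82 ± 0.32, adjusted p = 0.0641) did not pass the threshold. Against the depth-matched cells Cdh1 was called lower (-0.62, adjusted p = 0.0404). Cldn1 was called lower there too (-1.09), but it passed the filter through the contrast sums alone, where a difference is built in. Dsp (-0.09 ± 0.32), Vim (-0.46 ± 0.30) and Sparc (-0.99 ± 0.44) did not pass either. Cldn1 was called lower without replicate 4 (-1.06), from which nothing is read given how it passed the filter. Without replicate 2, Sparc was called lower (-2.13). Snai1 (9 UMIs in the cycling sums, 72 in the contrast sums) and Prkaca (30 and 113) failed the filter. Mmp2 and Tagln had 0 UMIs in the cycling sums, which allows up to 3.41 CPM, against 42 and 22 UMIs in the contrast sums, or 8.54 and 4.47 CPM.

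The epithelial label held in genes that the rule did not use. All 22 alveolar and milk genes had a UMI in the cycling sums, at 26113 CPM over all mice beside 1143 in immune cells. The 11 myoepithelial genes, which mark the basal layer of the gland, summed to 231 ± 360 in the cycling cells and 256 ± 129 in the contrast cells, with Krt5, Oxtr and Tagln at 0 in the cycling sums. Krt14, the 1 myoepithelial gene that passed the filter, did so through the contrast sums alone. It was lower (-1.43) in 5 of 6 mice, with 155 against 68.7 the other way in replicate 5, and lost the call without replicate 7 (-0.94).

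RNA of other cell types was present at a low level in both classes. Of 26 immune markers, 22 had a UMI in the cycling sums and 26 in the contrast sums, and Cd3d, Gzma, Gzmb and Coro1a were at 0 in the cycling sums. Their summed level was 547 ± 507 CPM (155 to 1592) in the cycling cells and 686 ± 349 (200 to 1164) in the contrast cells, beside 64370 in the 2352 immune cells. The class II genes H2-Ab1 (-1.49 ± 0.32) and Cd74 (-1.25 ± 0.32) were called lower, and neither was called against the depth-matched cells (-0.69 and 0.21). Without replicate 1, Cd74 lost its call (-1.04). Of 12 fibroblast markers 9 had a UMI in the cycling sums, their summed level was 518 ± 635 (42.9 to 1630) against 814 ± 1188 (105 to 3465), and Pdgfrb, Col6a1 and Mmp2 were at 0 in the cycling sums. Dcn, a fibroblast proteoglycan gene, had 186 UMIs there, at 825 and 699 in replicates 2 and 4 against 439 and 157 in their contrast cells, and was not called (0.18). Sparc stood above the contrast level in replicates 2 and 3 (165 and 15 against 52.5 and 2.11). Of 10 endothelial and mural markers 3 had a UMI, with 13.5 ± 15.9 (0 to 38.8) against 12.6 ± 19.1 (2.11 to 55.8), and Pecam1, Cdh5 and Kdr, which define endothelium, were at 0. All 5 erythroid markers had a UMI, with 747 ± 1746 (7.49 to 4702) against 1317 ± 1916 (29.5 to 5297). The hemoglobin gene Hbb-bs was called lower (-2.66 ± 0.24), and its fold change shrank to -0.91 with depth matching (adjusted p = 0.0689). At least 1 UMI of the immune, fibroblast, endothelial and mural markers (Sparc, Fn1 and Cd74 left aside) stood in 101 of 183 cycling cells. It stood in 1086 of 2476 contrast cells and in 102 of 167 depth-matched cells. The immune cells were set by 2 or more UMIs summed over Ptprc, Cd3e, Cd79a, Tyrobp, Laptm5 and Coro1a, which 5 cycling cells also held. They further had to hold no UMI of Epcam, Krt8, Krt18 or PYMT, so no cycling cell met that rule in full. Every cell with a UMI of the other-type markers was then left out of both classes. Replicates 2 and 4 fell under 10 cycling cells and 4 mice remained in the fit. In that smaller fit 364 genes were called (178 higher and 186 lower), and 17 named genes lost their call, among them Eno1 (0.32), Tpi1 (0.29), Uqcr10 (0.52), Snrpd1 (0.76), Cdk4 (0.40) and Mcl1 (-0.58). No doublet caller was run, and the part of doublets and free RNA in the results was not tested.

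Few genes differed between the CB and WT series in this comparison. A test of the difference between the series called 2 of 5122 genes (0.039%), with 205 at an unadjusted p under 0.05. Aldoc, an aldolase, was lower in the cycling cells of the WT series (-2.01) and near the contrast level in the CB series (-0.25), a difference of -1.70 ± 0.30 (edgeR adjusted p = 0.0435). The noncoding transcript AW112010, which is induced by interferon, was higher in the WT series (1.61) and not in the CB series (-0.16), a difference of 1.81 ± 0.33 (adjusted p = 0.0435). The WT series entered this test with 2 mice, and the series cannot be told apart from whatever else differed between these sets of mice.

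The share of cells that met the cycle rule was 5.46 ± 2.15% of PYMT-positive epithelial cells (SD, n = 7). Replicate 1 had 9.50% (95% exact binomial interval 7.31 to 12.1), replicate 3 had 6.42% (4.02 to 9.65), replicate 5 had 6.05% (3.78 to 9.10), replicate 2 had 5.34% (3.20 to 8.31), replicate 7 had 3.86% (2.60 to 5.49), replicate 8 had 3.73% (1.38 to 7.93) and replicate 4 had 3.32% (2.23 to 4.73). The intervals cover counting error only. Replicate 1 lay above replicates 4 and 7 beyond these intervals, and the other neighbours in this order overlapped. The same rule was met by 4.75 ± 1.80% of epithelial cells without a PYMT UMI and by 5.90 ± 1.61% of immune cells, both of which were shallower (median totals of 525 to 741 and 537 to 654 UMIs per mouse, against 879 to 1452).

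With every cell thinned to 500 UMIs, which leaves out 507 of 3419 PYMT-positive, 1339 of 3629 PYMT-negative and 975 of 2352 immune cells, the shares were 1.42 ± 0.81%, 3.19 ± 1.54% and 4.78 ± 0.86%. PYMT-positive cells lay 3.36 percentage points under immune cells, lower in 7 of 7 mice. Unthinned, the difference was -0.44 points, with PYMT-positive cells higher in 3 of 7 mice, and with cells thinned to 300 or 1000 UMIs it was -1.11 and -8.37, lower in 6 of 7 mice. The summed level of the 7 genes had the same order, with 286 ± 110 CPM in PYMT-positive cells and 425 ± 76.8 in immune cells, lower in 7 of 7 mice. Against PYMT-negative epithelial cells the thinned difference was -1.77 points, lower in 6 of 7 mice, but the unthinned difference was 0.70 points the other way. The level of the 7 genes in PYMT-negative cells was 308 ± 98.9 CPM, and PYMT-positive cells were higher in 3 of 7 mice, so no order is read between these classes. These shares and levels rest on the genes that chose the cells, so they are a description with no test. A cell counts as PYMT-negative when no UMI was captured, which does not show that the transgene was silent.

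**Figure D4:**
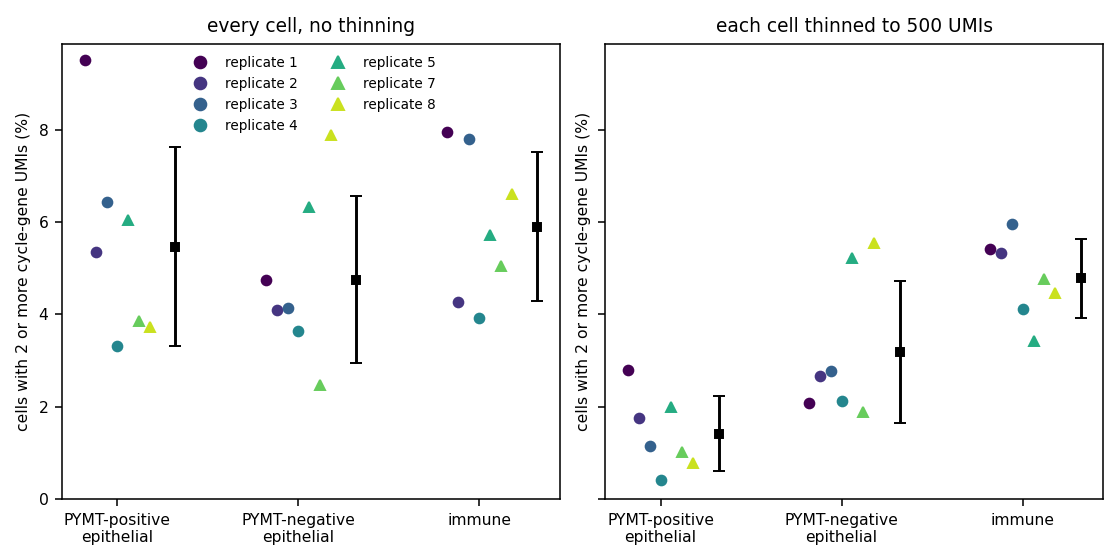
Percent of cells with 2 or more UMIs of the 7 cycle genes (y axis, from 0) in PYMT-positive epithelial, PYMT-negative epithelial and immune cells (x axis), for every cell (left) and with each cell thinned to 500 UMIs (right); points are mice, squares with bars the mean ± SD of 7 mice. Thinning moves the PYMT-positive mean from 5.46% to 1.42% and the immune mean from 5.90% to 4.78%.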

How the data were processed

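The authors made Drop-seq libraries of 7 tumors and deposited a table of UMI counts per gene and barcode for each (unit: counts). STAR and a human build stand in the labels and a mouse build with the PyMT sequence in the study's methods; the gene symbols are those of mouse, and no version of STAR is given in the sources used here. Mitochondrial genes, listed for replicates 7 and 8 alone, were dropped. UMIs were summed per mouse and class, and genes were kept by filterByExpr (about 28.6 CPM, or 10 UMIs at the median total). Sums were tested with edgeR 4.0.16 (R 4.3.3, TMM, quasi-likelihood, mouse as block, since both classes come from the same tumor), in mice with at least 10 cells per class, with Benjamini-Hochberg adjustment. The other settings were DESeq2 1.42.0, no scaling, no filter, no block, depth-matched or thinned cells, other thresholds, and leaving out mice. Levels are UMIs per 1000000 UMIs of a class (CPM), and fold changes are log2. The SE of a fold change was worked back from the edgeR test, as its absolute value divided by the square root of the F statistic. Shares have exact binomial intervals (Clopper-Pearson, 95%, scipy 1.17.1), and a planned permutation test of shares is not read, since the rule used the same genes. No doublet caller was run. The scripts were tested on simulated data. Cells, gene lists and tests were chosen with earlier results of these data known. Named genes were the 11 of the rule, up to 5 called genes with the smallest p in each cell cycle list, up to 3 in each other list, the 2 with the highest mean level where none was called, 10 called outside the lists in each direction, every gene of the study and up to 5 genes that differed between title series; any other gene was named after its values were seen. Mice are biological replicates, 1 library each. Promoters are from RefSeq (GRCm38.p6), matched by symbol.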

Additional observations from a re-analysis of the deposited data

Results flagged for a closer look

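In 6 of 109 groups of 6 or 7 mice (5.50%), 1 mouse lay far from the others in the difference between cycling and contrast cells on the scale of log2(CPM + 5), where CPM is counts per 1000000 UMIs. Chance flags about 1 in 20 such groups. In replicate 2, Cks1b, a subunit of cyclin-dependent kinase complexes, differed by 2.26 (the other mice by 1.24 to 1.58) and Btg2, an antiproliferative gene, by -1.41 (-0.74 to -0.47). In replicate 7, Hmmr, a spindle-pole gene, differed by 5.60 (4.22 to 4.70). In replicate 3 the noncoding transcript Lockd differed by 1.15 (2.85 to 3.80). In replicate 5, Ccdc34 differed by 0.68 (1.63 to 2.02) and Bglap3 by -5.10 (-2.38 to -1.23). Each of these mice kept the direction of the others.

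The cycling contrast differed between the CB and WT series in Aldoc, by -1.70 on the log2 scale, and in AW112010, by 1.81 (edgeR adjusted p = 0.0435 for each).

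Mitochondrial genes, which no comparison used, were listed for 2 of the 7 libraries. They took 1.39% of the UMIs of the cycling cells of replicate 7 (1.45% in its contrast cells) and 2.91% of those of replicate 8 (3.34%).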

How the results depend on the processing

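The number of genes called, 1165, was 512 with no replicate block (the block is the mouse that both classes came from). It was 485 against depth-matched cells with their own filter, 662 over the same genes, 154 with every cell thinned to 500 UMIs (903 genes tested), 61 for cells with exactly 1 cycle UMI, 364 without cells holding UMIs of other cell types (which also left 4 mice in the fit), 736 in the CB series and 376 in the WT series. Leaving out 1 mouse gave 753 to 1126 calls, and 292, 493, 427, 471, 442 and 338 against depth-matched cells without replicates 1, 2, 3, 4, 5 and 7. DESeq2 called 784 genes, 1219 were called without TMM and 1533 without the filter. Of the calls, 52.0% were higher in the main test, 62.3% without TMM, 64.1% with no block and 28.2% without the filter. The cause of these shifts was not tested.

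The share of cycling cells, 5.46%, was 1.42% at 500 UMIs, 0.809% at 300 and 10.2% at 1 or more cycle UMIs. The difference from PYMT-negative cells, -1.77 points, turned to 0.70 unthinned and was -0.18 at 300 UMIs, -0.96 at 1000, -1.33 at 1 or more cycle UMIs, -0.89 in the CB and -2.95 in the WT series, -1.92 to -1.27 without 1 of replicates 2, 3, 4, 5, 7 and 8, and -2.18 without replicate 1. The difference from immune cells, -3.36, was -0.44 unthinned, -3.67 in the CB and -2.95 in the WT series. It was -1.11 at 300 UMIs and -8.37 at 1000, with 1 mouse the other way in each, and -3.68 to -3.12 without 1 mouse.

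Of 2090 values of 107 named genes under other settings, 1857 kept direction and side of the threshold, 179 lost the call, 15 gained it and 39 reversed. Dcn, a fibroblast gene that did not pass (0.18), reversed with DESeq2 (-1.70), no filter (-0.073), depth matching (-0.89, and -0.88 over the same genes), exactly 1 cycle UMI (-1.50), 2 PYMT UMIs (-0.21), the WT series (-3.49) and without replicate 4 or 2 (range without 1 mouse -0.66 to 0.63). Gsk3b reversed with no filter (-0.19), depth matching (-0.11 and -0.069), 1 cycle UMI (-0.036), 4 epithelial UMIs (-0.041), no other-type cells (-0.32), the WT series (-0.24) and without replicate 2 or 3 (range -0.064 to 0.11). Gsk3a reversed with no filter (-0.15) and without replicate 2, 4 or 7 (range -0.081 to 0.18). Dsp reversed over depth-matched cells (0.044), 1 cycle UMI (0.27), 2 PYMT UMIs (0.070), no other-type cells (0.56) and without replicate 2, 4 or 7 (range -0.40 to 0.086). Hk2 reversed over depth-matched cells (0.17), 1 cycle UMI (0.51) and the WT series (0.070), and Cdh1 when thinned (0.028) or at 1 cycle UMI (0.12). At 1 cycle UMI, Prkar1a (0.37), Nfe2l2 (0.027) and Cldn1 (0.23) reversed too. Cd74 reversed with depth matching (0.21), the 1 called gene to do so, and AW112010 in the CB series (-0.16).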
